A study of Mus musculus with 59 samples.

Results

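The genes described here are 10 genes of the piRNA pathway, *Piwil1*, *Piwil2*, *Piwil4*, *Tdrd1*, *Tdrd5*, *Tdrd9*, *Asz1*, *Mael*, *Mov10l1* and *Ddx4*, chosen by symbol from the 24391 genes listed in each RNA-seq library. All 10 were found in the files. They and the gene lists set beside them were chosen with earlier results of these data known, so counts against all genes are a description. piRNAs are small RNAs of germ cells that guide PIWI proteins to transposon transcripts, so that transposons are kept silent in the germline. Tudor domain proteins, RNA helicases and scaffold proteins gather with the PIWI proteins in cytoplasmic granules, where the precursors are cut and loaded. In mouse ESCs many germline genes are kept low by the PRC1.6 complex, which holds PCGF6 and the DNA-binding pairs MGA/MAX and E2F6/DP1. PCGF1 belongs to another variant of the same family of complexes, and RING1A or RING1B is the ubiquitin ligase subunit in all of them.

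RNA was measured in 59 libraries of 6 mouse ESC lines, 1 per genotype, in which 4-OHT activates an ERT2-Cre recombinase. The study's methods give blastocysts as the source of all but the *Ring1A*-pm;*Ring1B*-cpm line, which was made in earlier work. The *Pcgf1* line (*Pcgf1* f/f to *Pcgf1* delta/delta) has 19 libraries, with 4 of control ESCs, 5 of mutant ESCs, 5 of control EBs and 5 of mutant EBs. The other lines have 8 libraries each, 2 in each of the same 4 groups. They are *Ring1A/B* (*Ring1b* f/f to delta/delta, with *Ring1a* -/- in controls and mutants alike), *Pcgf2/4* (both f/f to delta/delta), *Pcgf3/5* (both f/f to delta/delta), *Pcgf6* (f/f to delta/delta) and *Ring1A*-pm;*Ring1B*-cpm. In the last line, called the point mutant line below, controls and mutants carry *Ring1a* pm/pm and 4-OHT turns *Ring1b* into pm/pm, a point-mutant allele that is still transcribed. ESCs were grown on feeder fibroblasts with LIF and 3 kinase inhibitors, and EBs are the aggregates formed during 2 days without them. Per the study's methods, *Pcgf1*, *Pcgf2/4* and *Pcgf3/5* were deleted before EBs were formed, whereas *Pcgf6* and *Ring1b* were deleted during EB formation. Values are TPM, abundances scaled for transcript length and summing to 1000000 in every library, so that genes can be set beside each other. The files do not tell how many reads stand behind a value, and the genes listed at 0 numbered 6039 to 9139 in a library. The labels do not say whether replicates came from separate cultures, so the p-values below measure only the spread between these libraries. In a bulk library fewer cells that express a gene and less RNA per cell cannot be told apart.

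Labels and data did not go together in every line. The names of the deposited files state a condition of their own, which was the labelled one in every library of the *Pcgf1* and point mutant lines. In the other 4 lines it was another one in 21 of 32 libraries. *Pcgf6* transcript in the *Pcgf6* line was 67.1 to 105 TPM in the 4 libraries labelled ESC, control and mutant alike, and 34.7 to 46.3 TPM in the 4 labelled EB. By the names, the first 4 were controls and the other 4 mutants. In the *Ring1A/B* line *Fgf5*, a gene of EB-stage cells, was 27.5 to 28 TPM in libraries labelled mutant ESC and 0.54 to 0.79 TPM in those labelled control EB. Across the other 4 lines *Fgf5* was 0 to 0.816 TPM in every ESC library by name and 7.53 to 46.3 TPM in every EB library by name. These levels, and those of *Pcgf6* in its line, went with the names and not with the labels. Groups were kept as labelled, no comparison was set up by the names, and ranges by name are given as values for some members of these lines. Comparisons by label in these lines mix conditions by name and are not read as effects of a deletion or stage. The results therefore rest first on the *Pcgf1* and point mutant lines. *Pcgf1* transcript was 7.30 to 16.6 TPM in control and 0.627 to 2.77 TPM in mutant libraries of its line. *Ring1b*, listed as *Rnf2*, was by name 77.2 to 78.2 TPM in control and 83.2 to 95.1 TPM in mutant ESCs of the *Ring1A/B* line. In its EBs by name it was 62.9 to 63.2 against 78.1 to 80.5 TPM. By label the mutants were the lower ones at both stages. The gene-level values by name thus do not show the *Ring1b* deletion. *Pou5f1*, the defining gene of pluripotent cells, was at 1027 to 2367 TPM across all 59 libraries.

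The promoters are shown first, and the 6 that share a motif are printed. They are not the same as the 6 genes called higher in point mutant ESCs. *Piwil1* and *Tdrd9* hold the motif and were not called there, and *Tdrd5* was called without it. In both uncalled genes the mutant ESCs still lay above the controls without overlap, as for 32.5% of all genes. A link between the motif and the response was not tested. RefSeq starts on GRCm38.p6 were found for 9 members, while *Piwil2* is not in the table. In the window from 250 bases before to 50 bases after the start, the E-box CACGTG, the letters that MGA/MAX is known to bind, stood in 6 of the 9 members. It stood in 1957 of 27025 promoters of the same length (7.24%) and in 2 of 11 other piRNA pathway genes. CACGTG reads the same on both strands. Each sequence gives the 250 bases before the start, 5′ to 3′ on the gene's strand, with CACGTG in capitals: *Piwil1* at chr5:128735996-128736245 on the plus strand, *Tdrd1* at chr19:56825959-56826208 on the plus strand, *Tdrd9* at chr12:111971309-111971558 on the plus strand, *Mael* at chr1:166238745-166238994 on the minus strand, *Mov10l1* at chr15:88982744-88982993 on the plus strand and *Ddx4* at chr13:112652311-112652560 on the minus strand.
Piwil1: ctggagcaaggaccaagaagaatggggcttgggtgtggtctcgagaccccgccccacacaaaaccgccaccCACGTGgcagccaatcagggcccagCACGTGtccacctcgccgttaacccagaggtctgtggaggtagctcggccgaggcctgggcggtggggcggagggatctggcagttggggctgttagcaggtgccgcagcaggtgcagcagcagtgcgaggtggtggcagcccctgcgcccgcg
Tdrd1: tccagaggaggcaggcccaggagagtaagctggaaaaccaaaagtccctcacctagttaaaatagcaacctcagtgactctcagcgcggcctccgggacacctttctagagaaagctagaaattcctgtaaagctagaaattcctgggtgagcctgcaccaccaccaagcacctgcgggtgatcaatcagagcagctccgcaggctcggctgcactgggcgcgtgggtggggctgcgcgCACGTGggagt
Tdrd9: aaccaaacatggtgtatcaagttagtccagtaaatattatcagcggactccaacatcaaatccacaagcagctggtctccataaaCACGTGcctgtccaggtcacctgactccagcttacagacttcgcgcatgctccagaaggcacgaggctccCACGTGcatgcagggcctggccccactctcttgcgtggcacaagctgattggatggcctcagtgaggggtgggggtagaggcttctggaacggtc
Mael: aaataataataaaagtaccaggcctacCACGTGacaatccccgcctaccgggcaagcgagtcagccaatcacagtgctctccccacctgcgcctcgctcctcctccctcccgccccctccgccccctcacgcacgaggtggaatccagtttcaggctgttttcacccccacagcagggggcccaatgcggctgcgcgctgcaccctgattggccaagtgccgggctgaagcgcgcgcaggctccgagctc
Mov10l1: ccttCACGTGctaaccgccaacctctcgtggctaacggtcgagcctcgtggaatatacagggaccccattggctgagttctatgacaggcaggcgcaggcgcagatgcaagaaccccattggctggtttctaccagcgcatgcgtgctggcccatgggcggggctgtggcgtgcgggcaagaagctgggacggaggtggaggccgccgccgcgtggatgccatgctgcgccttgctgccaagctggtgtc
Ddx4: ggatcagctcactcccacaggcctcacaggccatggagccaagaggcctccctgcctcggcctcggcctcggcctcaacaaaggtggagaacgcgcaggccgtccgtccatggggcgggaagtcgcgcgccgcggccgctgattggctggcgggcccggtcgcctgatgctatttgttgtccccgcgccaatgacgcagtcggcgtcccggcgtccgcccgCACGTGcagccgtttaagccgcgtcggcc

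*Piwil1* and *Tdrd9* each held 2 E-boxes, as 169 of the 27025 promoters did (0.625%). The first bases of these motifs lay 179 and 154 bases before the start of *Piwil1* and 165 and 95 bases before that of *Tdrd9*. In *Tdrd1* the motif lay 11 bases and in *Ddx4* 29 bases before the start, whereas in *Mael* and *Mov10l1* it lay 223 and 246 bases away. *Tdrd5*, *Asz1* and *Piwil4* had no CACGTG in the window. The E2F motif TTCCCGC, searched on both strands, stood in *Tdrd5* (250 bases before the start) and *Ddx4* (136 bases), 2 of 9 members against 4.66% of all promoters and 0 of 11 other pathway genes. TCCCGC, which is contained in the longer motif, stood in 3 of 9 members (*Tdrd5*, *Mael* and *Ddx4*), in 20.0% of all promoters and in 2 of 11 other pathway genes. These are letters in a window and not measured binding. None of the 10 members is in the lists of RING1B-bound genes that the study divided into Group 1, 2 and 3.

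**Figure D1:**
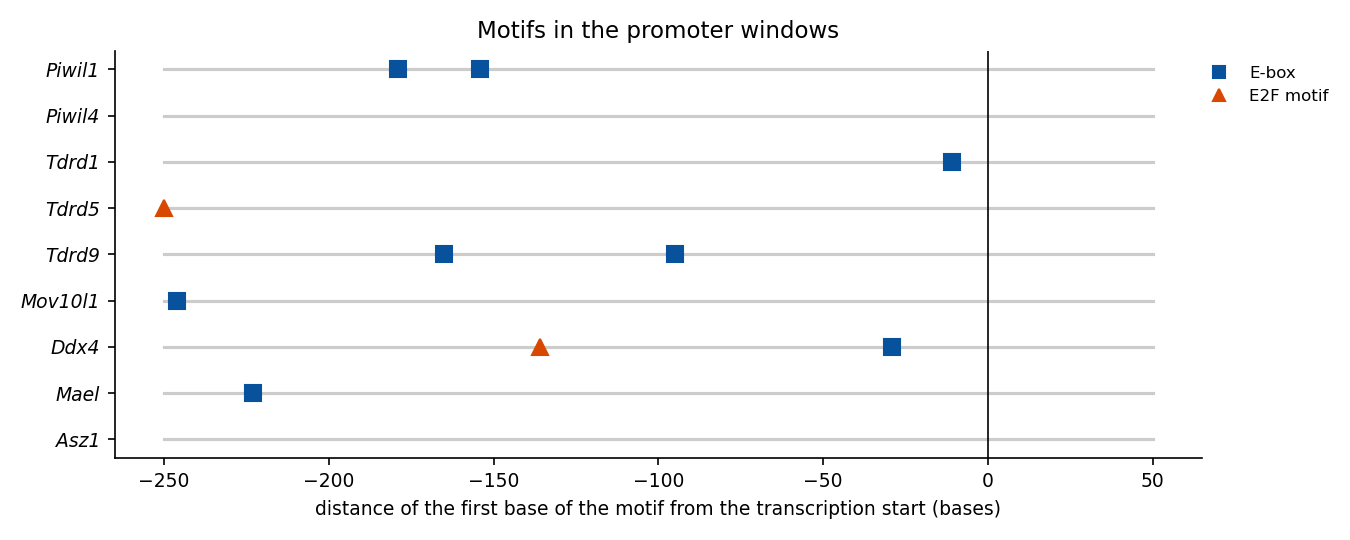
Positions of CACGTG and of the E2F motif in the promoters of the members, in bases from the RefSeq start (0) on the gene's strand, with 1 row per gene. *Piwil1* and *Tdrd9* carry 2 E-boxes each, and *Tdrd5*, *Asz1* and *Piwil4* carry none.

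In control ESCs the members were not equally silent. In the 4 control ESC libraries of the *Pcgf1* line *Ddx4*, the DEAD-box helicase known as VASA, was at 22.3 TPM on average (13.6 to 28.1), and *Piwil2*, the PIWI protein MILI, at 18.4 TPM (16.5 to 21.6). *Mael*, a granule protein needed for transposon silencing, was at 9.36 TPM (7.34 to 12.0), and *Mov10l1*, the helicase that feeds precursors into piRNA processing, at 6.84 TPM (4.90 to 7.99). The ranges of *Ddx4* and *Piwil2* overlapped, as did those of *Mael* and *Mov10l1*, and the first pair lay above the second. *Tdrd5* followed at 2.12 TPM, and *Tdrd1*, *Tdrd9*, *Piwil1*, *Piwil4* and *Asz1* had means of 0.373 to 0.574 TPM.

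Loss of *Pcgf1* in ESCs raised no member. *Ddx4* was 23.4, 24.0, 28.1 and 13.6 TPM in control and 18.3, 12.8, 13.9, 9.92 and 9.99 TPM in *Pcgf1*-KO ESCs, a log2 difference of -0.76 ± 0.24 (SE) with an adjusted p of 0.223. Only the lowest control library lay within the range of the mutants. *Tdrd1*, a Tudor protein that binds MILI, was 0.452, 0.624, 0.209 and 0.209 TPM in control and 0.132 to 0.201 TPM in *Pcgf1*-KO ESCs. The groups did not overlap, with the mutants lower, as for 2.56% of all genes. At these low levels the difference of -0.69 ± 0.46 did not pass the test (adjusted p 0.784). *Piwil4*, the nuclear PIWI protein MIWI2, was 0.254 to 0.8 TPM in control ESCs and was listed at 0 in 3 of 5 mutant libraries, with 0.344 and 0.410 TPM in the other 2. *Piwil2* was 15.6 to 26.9 TPM in mutant and 16.5 to 21.6 TPM in control ESCs, a difference of 0.16 ± 0.27.

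By limma with Benjamini-Hochberg adjustment over all genes, called at an adjusted p under 0.05, 0 of 10 members were higher and 0 lower in *Pcgf1*-KO ESCs. Among all genes 0.32% were called higher and 0.32% lower. At an unadjusted p under 0.05 there were 3 members, *Tdrd9*, *Ddx4* and *Mov10l1*, all lower. The share of all genes at that level is not given here or below, so such counts have no background. The median log2 difference of the 10 members was -0.61, and that of all genes tested was -0.02. With the replicate number as a block, *Piwil4* (-1.90, adjusted p 0.0244), *Tdrd9* (-1.48, adjusted p 0.0231) and *Ddx4* (-0.73, adjusted p 0.0492) were called lower, where 2.78% of all genes were.

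In EBs, loss of *Pcgf1* lowered *Piwil1*, the PIWI protein MIWI of meiotic and later male germ cells. It was 1.46, 2.5, 4.74, 1.63 and 1.31 TPM in control EBs and 0.260, 0.113, 0.241, 0.249 and 0.0467 TPM in *Pcgf1*-KO EBs. All 5 mutant libraries lay below all 5 controls, as for 1.63% of all genes, and the mutant of each same-numbered pair lay lower in 5 of 5. The log2 difference was -3.03 ± 0.41 (SE, adjusted p 0.00098 by limma), 8.15 times lower on the log2(TPM + 0.1) scale, which understates changes at such low levels. Over the 14 alternative settings in which it was tested, its adjusted p ranged from 0.00019 to 0.00427. In the fit without the replicate block *Piwil1* was the only member called, 1 of 10, where 0.874% of all genes were called lower and 1.08% higher. The gene lies on mm9 at chr5:129242121-129261349 on the plus strand.

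*Piwil4* was 0.437, 3.30, 1.93, 4.33 and 5.31 TPM in control EBs and 0.130, 0.337, 1.26, 1.64 and 1.82 TPM in *Pcgf1*-KO EBs. Each mutant lay below the control of its own number, although the groups overlapped, and the difference was -1.52 ± 0.72 with an adjusted p of 0.414. With the replicate block it was called (-1.52, adjusted p 0.0299), where 5.58% of all genes were called lower. *Tdrd1* was 3.65, 2.66, 6.46, 1.49 and 1.48 TPM in control and 1.48, 1.63, 2.27, 0.649 and 0.778 TPM in mutant EBs, a difference of -1.06 ± 0.43 (adjusted p 0.289). *Tdrd5*, a Tudor protein of spermatid granules, was 8.02 to 11.6 TPM in control and 3.10 to 9.05 TPM in mutant EBs (-0.68 ± 0.29, adjusted p 0.328). *Mael* was 19.5 to 35.0 TPM in controls and 16.4 to 20.6 TPM in mutant EBs (-0.50 ± 0.21, adjusted p 0.332). These 5 members passed an unadjusted p of 0.05, and no member was higher in *Pcgf1*-KO EBs at that level. The share of all genes at that level is not given, so this count cannot be judged against it. *Ddx4*, *Piwil2* and *Mov10l1* differed by -0.36 to -0.13, with overlapping groups. The median over the members was -0.43, and over all genes -0.03.

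Markers of other cells moved with these EB values. A list of 10 fibroblast genes summed to 24.4 to 46.0 TPM in control and 7.81 to 14.4 TPM in *Pcgf1*-KO EBs, with 1 of its 10 genes called lower, and 2 of 6 primitive endoderm genes were called higher. A list of 6 genes of the EB stage summed to 1085 to 3003 TPM in control and 350 to 1872 TPM in *Pcgf1*-KO EBs, with 0 called. The two-cell-like list (5 genes, with *Tcstv1* and *Tcstv3* at 0) summed to 9.86 to 28.4 TPM in control and 0.391 to 8.37 TPM in *Pcgf1*-KO EBs, with 0 called. Their part in the result was not tested. Whether the effect on *Piwil1* differed between EBs and ESCs was tested directly, and the difference of -2.37 ± 0.60 had an adjusted p of 0.354 (0.0756 with the replicate block). No member passed this test, where 0.00486% of all genes were called lower.

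**Figure D2:**
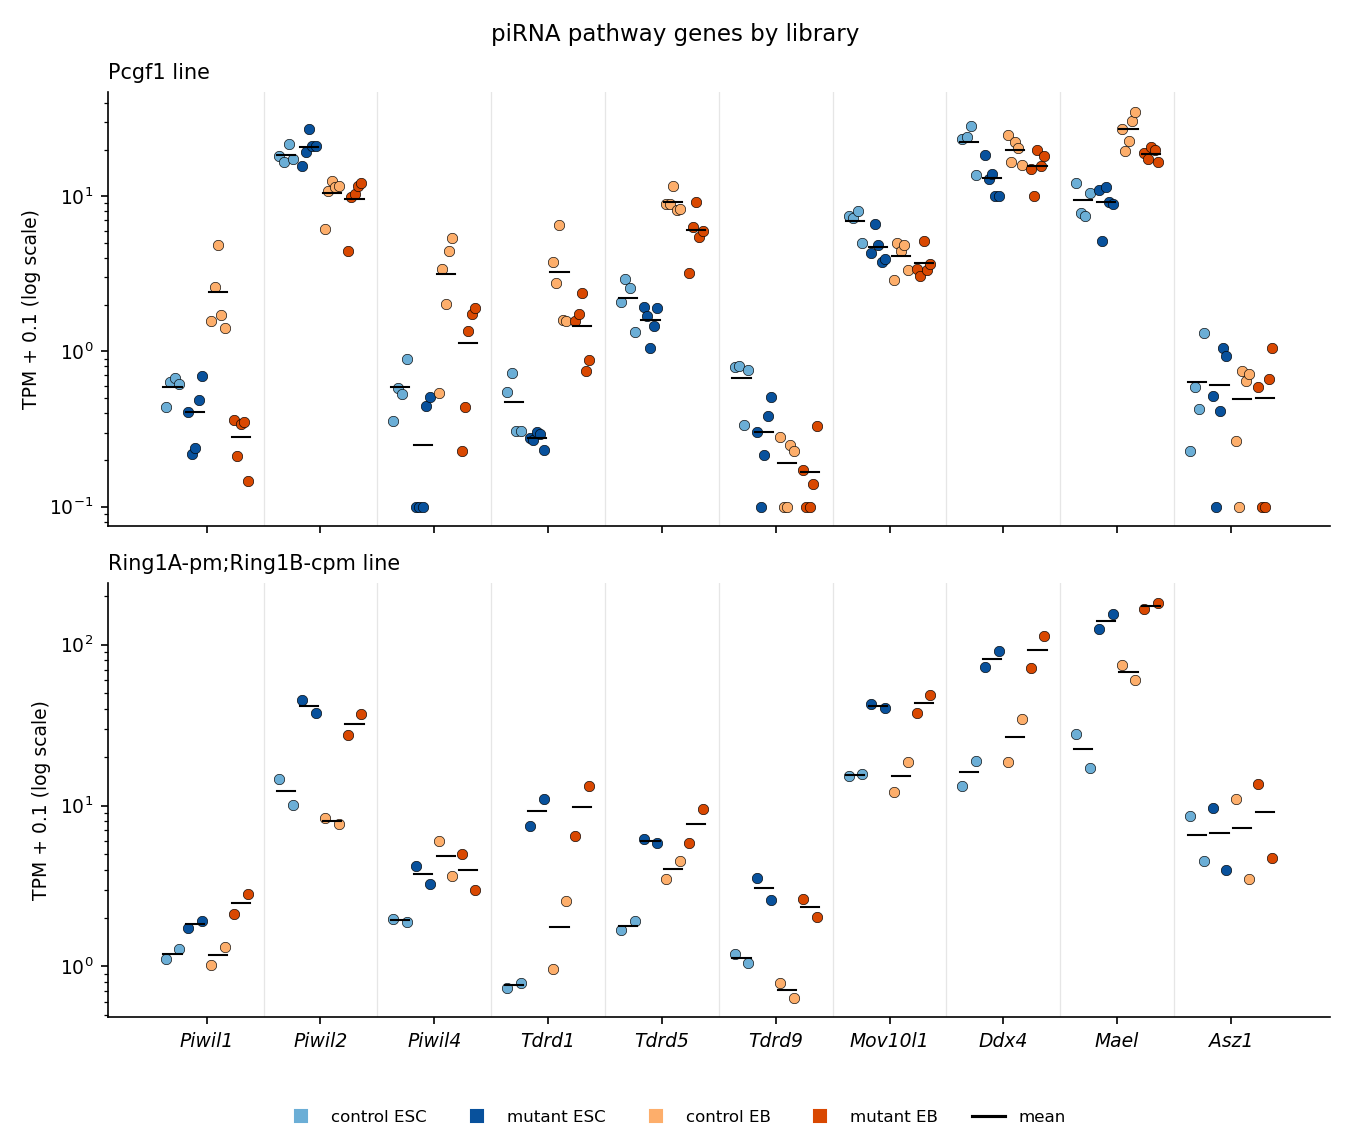
TPM of each member in every library (points, log axis with 0.1 added) of the *Pcgf1* line and of the point mutant line, by group, with bars at the mean TPM. *Piwil1* in *Pcgf1*-KO EBs lies at 0.0467 to 0.260 TPM, below all control EBs, whereas *Mael* and *Ddx4* in the point mutants lie above all of their controls.

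In 4-OHT treated ESCs of the point mutant line 6 of 10 members rose, *Piwil2*, *Tdrd1*, *Tdrd5*, *Mael*, *Mov10l1* and *Ddx4*, and none fell, where 2.34% of all genes were called higher and 0.197% lower. The groups of 9 members did not overlap, with the mutants higher, which with 2 libraries against 2 was the case for 32.5% of all genes. The median log2 difference was 1.6 over the members and 0.12 over all genes.

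*Mael* was 27.5 and 17.0 TPM in control and 125 and 155 TPM in mutant ESCs, a log2 difference of 2.68 ± 0.24 (adjusted p 0.00714) or 6.39-fold. *Ddx4* was 13.2 and 18.7 TPM in control and 72.5 and 90.8 TPM in mutant ESCs, 2.36 ± 0.35 (adjusted p 0.0245) or 5.13-fold. Both mutants of either gene lay far above both controls. *Tdrd1* had the largest difference of the 10, from 0.639 and 0.690 TPM to 7.39 and 10.9 TPM (3.57 ± 0.55, adjusted p 0.0255, 11.9-fold). *Piwil2* went from 14.6 and 10.04 TPM to 45.2 and 37.4 TPM (1.76 ± 0.24, adjusted p 0.0210), and *Mov10l1* from 15.2 and 15.6 TPM to 42.6 and 40.5 TPM (1.43 ± 0.23, adjusted p 0.0283). MILI and the MOV10L1 helicase act on the same precursors. Their transcripts stood at like levels in these mutants (means of 41.3 and 41.5 TPM) and also in their controls (12.3 and 15.4 TPM). A link between these levels was not tested. *Tdrd5* went from 1.57 and 1.80 TPM to 6.14 and 5.75 TPM (1.76 ± 0.33, adjusted p 0.0421).

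The other 4 members were not called. *Tdrd9*, a Tudor protein with a helicase domain that partners MIWI2, was 1.10 and 0.944 TPM in control and 3.43 and 2.5 TPM in mutant ESCs (1.44 ± 0.39, adjusted p 0.109). *Piwil4* was 1.88 and 1.78 TPM against 4.10 and 3.17 TPM (0.94 ± 0.40, adjusted p 0.292), and *Piwil1* 1.01 and 1.19 TPM against 1.64 and 1.82 TPM (0.61 ± 0.38, adjusted p 0.5). *Asz1*, the ankyrin repeat scaffold also known as GASZ, was 8.57 and 4.41 TPM in control and 9.49 and 3.88 TPM in mutant ESCs, so that the 2 libraries of a group lay further apart than the group means (-0.02 ± 0.74).

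In EBs of the point mutant line 5 of 10 members rose, *Piwil2*, *Tdrd1*, *Mael*, *Mov10l1* and *Ddx4*, and none fell, where 3.76% of all genes were called higher and 0.764% lower. *Ddx4* was 18.6 and 34.4 TPM in control and 71.2 and 113 TPM in mutant EBs (1.82 ± 0.35, adjusted p 0.0338), and *Mael* 74.5 and 59.9 TPM against 166 and 182 TPM (1.38 ± 0.24, adjusted p 0.0259). *Piwil2* was 8.32 and 7.57 TPM in control and 27.3 and 36.8 TPM in mutant EBs (1.98 ± 0.24, adjusted p 0.0121). *Mov10l1* was 12.0 and 18.4 TPM against 37.7 and 48.9 TPM (1.52 ± 0.23, adjusted p 0.0184). All 4 genes thus stood in mutant EBs well above the higher of the 2 controls. *Tdrd1* was 0.865 and 2.46 TPM against 6.41 and 13.1 TPM (2.56 ± 0.55, adjusted p 0.0472). *Tdrd9* was 0.695 and 0.541 TPM against 2.52 and 1.93 TPM and did not pass (1.69 ± 0.39, adjusted p 0.0554), nor did *Tdrd5* (0.90 ± 0.33, adjusted p 0.177) or *Piwil1* (1.07 ± 0.38, adjusted p 0.163). *Piwil4*, at 5.93 and 3.53 TPM in control and 4.92 and 2.88 TPM in mutant EBs, was the only member with a lower mean in the mutants (-0.27 ± 0.40, adjusted p 0.758). The groups of 8 members did not overlap, with the mutants higher, as for 30.1% of all genes. The median was 1.45 over the members and 0.10 over all genes. The difference of the effect between EBs and ESCs was called for no member, where 0.00493% of all genes were called in each direction. For *Mael* it was -1.30 ± 0.34 with an adjusted p of 0.512.

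These calls rest on 2 libraries per group. Without control ESC replicate 1 the count in ESCs was 1 member, without any other single ESC library of the line it was 0, and without any single EB library the count in EBs was 0. The remaining library of the group was then assumed to vary like the others. The share of all genes called in these fits is not given, so a general loss of power cannot be told from a change in the members. Every log2 difference of the called members stayed positive in these fits. Other cell markers moved as well. The fibroblast list summed to 37.8 to 43.0 TPM in control and 65.3 to 68.7 TPM in mutant ESCs, and to 30.2 to 34.1 against 74.2 to 74.5 TPM in EBs, with 0 and 4 of 10 genes called higher. *Lum*, of that list, was at 0 in every group but mutant EBs. The list of 5 two-cell-like genes, of which *Tcstv1* and *Tcstv3* were at 0 in all libraries, summed to 34.9 to 101.2 TPM in control and 338 to 919 TPM in mutant ESCs, and to 45.9 to 139 against 608 to 1145 TPM in EBs, with 0 and 2 genes called. Primitive endoderm genes summed to 4.96 to 6.18 TPM in control and 23.7 to 25.2 TPM in mutant ESCs, with 2 of 6 called, and to 13.6 to 18.4 against 30.6 to 33.6 TPM in EBs, with 1 of 6 called. Genes of the EB stage summed to 465 to 705 TPM in control and 134 to 164 TPM in mutant EBs, with 3 of 6 called lower. Fewer genes were listed at 0 in mutant ESCs (6336 and 6543) than in control ESCs (7048 and 7342). The part of these cells and of depth in the members' values was not tested. The primordial germ cell list (6 genes) summed to 84.6 to 93.7 TPM in control and 74.6 to 96.5 TPM in mutant ESCs, and to 53.5 to 70.0 against 82.6 to 112 TPM in EBs. The list of 4 later germ cell genes summed to 158 to 177 TPM in control and 228 to 269 TPM in mutant ESCs, and to 206 to 220 against 459 to 547 TPM in EBs.

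**Figure D3:**
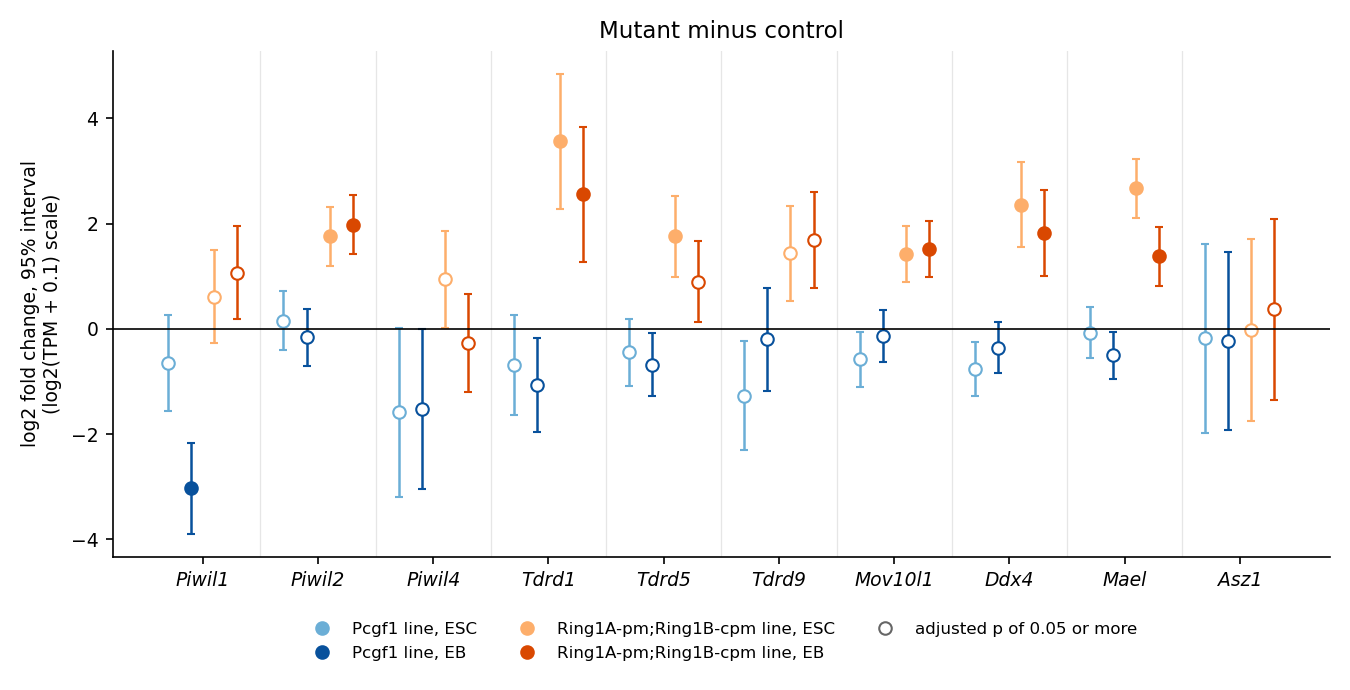
Log2 difference of mutant minus control for each member in ESCs and EBs of the *Pcgf1* and point mutant lines, with bars for the 95% interval, filled points where the adjusted p was under 0.05 and open points elsewhere. In the point mutant line 6 members are filled in ESCs and 5 in EBs, all above 0, and in the *Pcgf1* line *Piwil1* in EBs alone is filled, at -3.03. Values and adjusted p are those of the fit without the replicate block.

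Both lines were then put into 1 fit, to test whether the effect of 4-OHT differed between them. In ESCs the difference, point mutant line minus *Pcgf1* line, was called for 5 of 10 members and was positive in each, where 0.907% of all genes were called higher. It was 4.26 ± 0.80 for *Tdrd1* (adjusted p 0.00786), 3.12 ± 0.45 for *Ddx4* (adjusted p 0.00057) and 2.75 ± 0.39 for *Mael* (adjusted p 0.00052). For *Tdrd5* it was 2.20 ± 0.51 (adjusted p 0.0343) and for *Mov10l1* 2.00 ± 0.39 (adjusted p 0.0112). Thus these members rose in the point mutants by more than they changed on *Pcgf1* loss. With the replicate block 8 members were called, where 3.73% of all genes were called higher.

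In EBs the difference was called for 6 of 10 members, again positive in each, where 1.76% of all genes were called higher. *Piwil1* had the largest, 4.10 ± 0.70 (adjusted p 0.00333), since it was 8.15 times lower in *Pcgf1*-KO EBs while its means in the point mutant line were 1.07 TPM in control and 2.38 TPM in mutant EBs. *Tdrd1* followed with 3.62 ± 0.78 (adjusted p 0.0162), *Ddx4* with 2.18 ± 0.44 (adjusted p 0.0107) and *Piwil2* with 2.15 ± 0.45 (adjusted p 0.0127). The difference was 1.89 ± 0.38 for *Mael* (adjusted p 0.0105) and 1.65 ± 0.39 for *Mov10l1* (adjusted p 0.0257). The count fell to 3 without control EB replicate 1 and to 2 without mutant EB replicate 2 of the point mutant line. The share of all genes called without these libraries is not given. *Asz1* differed by 0.16 ± 1.48 in ESCs and 0.60 ± 1.45 in EBs, an error too wide to place it.

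In the *Pcgf6* line, libraries split by their label as EB or ESC, which by the deposited names is mutant or control. By label, no member was called in mutants against controls of either stage, or in EBs against ESCs of either state, and 0.0% of all genes were called in each of these 4 comparisons. At an unadjusted p under 0.05 there were 0 members in both mutant comparisons and 8 in both EB comparisons. No share of all genes at that level is given. Averaged over control and mutant labels, the 4 libraries labelled EB lay above the 4 labelled ESC, without overlap, for 9 of 10 members, as for 13.5% of all genes. *Mael* was called higher, 1 of 10, where 0.0355% of all genes were called higher and 0.00508% lower. It was 14.3, 13.5, 15.5 and 17.0 TPM in libraries labelled ESC and 139, 117, 136 and 102 TPM in those labelled EB (3.02 ± 0.20, adjusted p 0.0158, 8.10-fold).

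*Ddx4* was 17.8, 6.24, 16.2 and 8.07 TPM in libraries of the *Pcgf6* line labelled ESC and 120, 87.0, 104 and 111 TPM in those labelled EB (3.24 ± 0.39, adjusted p 0.0706). *Tdrd1* was 0.455, 0.212, 0.561 and 0.524 TPM against 8.80, 6.25, 7.57 and 11.6 TPM (4.03 ± 0.44, adjusted p 0.0628). Neither gene had overlapping values, and neither passed the adjusted test. *Piwil2* was 12.8, 3.25, 12.2 and 3.84 TPM against 50.7, 43.5, 40.8 and 75.9 TPM, and *Mov10l1* 8.60, 1.95, 9.40 and 3.29 TPM against 48.0, 21.8, 42.2 and 31.7 TPM. In both genes the 2 lower libraries labelled ESC were EBs by their names. *Tdrd5*, at 1.31 to 2.19 TPM against 2.01 to 3.10 TPM, was the member whose values overlapped. By name, *Ddx4* was 16.2 to 17.8 TPM in control ESCs, 104 to 120 TPM in mutant ESCs, 6.24 to 8.07 TPM in EBs of controls and 87.0 to 111 TPM in EBs of mutants, given as values only. The fibroblast list summed to 10.2 to 49.8 TPM in libraries labelled ESC and 78.5 to 167 TPM in those labelled EB, with 9 of 10 genes higher and 0 called, and the two-cell-like list to 1.99 to 13.1 against 18.8 to 211 TPM. The later germ cell list summed to 62.2 to 77.1 against 99.3 to 262 TPM and the primitive endoderm list to 6.06 to 7.56 against 8.42 to 100.1 TPM, with 0 called in each, whereas the primordial germ cell list overlapped (74.0 to 131 against 68.8 to 192 TPM). Their part was not tested. The median of all genes was itself 0.36 higher in libraries labelled EB, and median-of-ratios scaling moved it by -0.31, after which 3 members were called. The share of all genes called after scaling is not given.

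In the *Ring1A/B* line, libraries labelled control EB are mutant ESCs by name and those labelled mutant ESC are control EBs by name. All 10 members were called higher in libraries labelled control EB than in those labelled control ESC, where 28.6% of all genes were called higher and 14.6% lower. *Tdrd1* was 0.483 and 0.489 TPM against 11.6 and 10.8 TPM (4.27 on the log2 scale), *Mael* 12.1 and 10.9 TPM against 93.0 and 96.7 TPM (3.04), and *Ddx4* 15.6 and 12.9 TPM against 89.9 and 87.7 TPM (2.64). *Piwil2* was 7.78 and 7.82 TPM against 42.0 and 43.6 TPM (2.44), and *Mov10l1* 6.27 and 6.07 TPM against 33.1 and 32 TPM (2.38). These 5 genes are those called in both stages of the point mutant line. The smallest of the 10 differences was 0.86.

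Libraries labelled mutant EB against mutant ESC, which by name are mutant against control EBs, had 7 members called higher and 2 lower, where 36.6% and 19.9% of all genes were called. *Piwil2* was 7.91 and 7.97 TPM in libraries labelled mutant ESC and 52.1 and 51.1 TPM in those labelled mutant EB (2.68). *Ddx4* was 25.4 and 26.7 TPM against 104 and 90.1 TPM (1.89), and *Mael* 50.1 and 49.1 TPM against 168 and 168 TPM (1.76). *Piwil1*, at 2.37 and 2.77 TPM against 1.27 and 1.39 TPM, and *Piwil4*, at 3.83 and 4.52 TPM against 2.11 and 1.76 TPM, were the 2 lower members (-0.90 and -1.07). Mutant against control by label gave 7 higher and 2 lower in ESCs, where 25.2% and 23.6% of all genes were called, and 2 higher and 2 lower in EBs, where 19.3% and 14.1% were. The fibroblast list summed to 156 to 157 TPM in libraries labelled control ESC, 27 to 28.7 in mutant ESC, 383 to 407 in control EB and 70.6 to 71.1 in mutant EB. The two-cell-like list summed to 102 to 125 TPM in both groups labelled ESC and to 2608 to 4556 TPM in those labelled EB. Later germ cell genes summed to 82.3 to 86.9 TPM in control ESC, 72.4 to 77.7 in mutant ESC, 261 to 291 in control EB and 150 to 169 in mutant EB, all by label. Primordial germ cell genes summed to 181 to 195, 62.9 to 67.0, 263 to 281 and 159 to 165 TPM, and primitive endoderm genes to 7.02 to 7.62, 11.8 to 13.2, 27.3 to 27.9 and 130.3 to 130.4 TPM, in the same order. The part of these lists in the members' values was not tested.

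**Figure D4:**
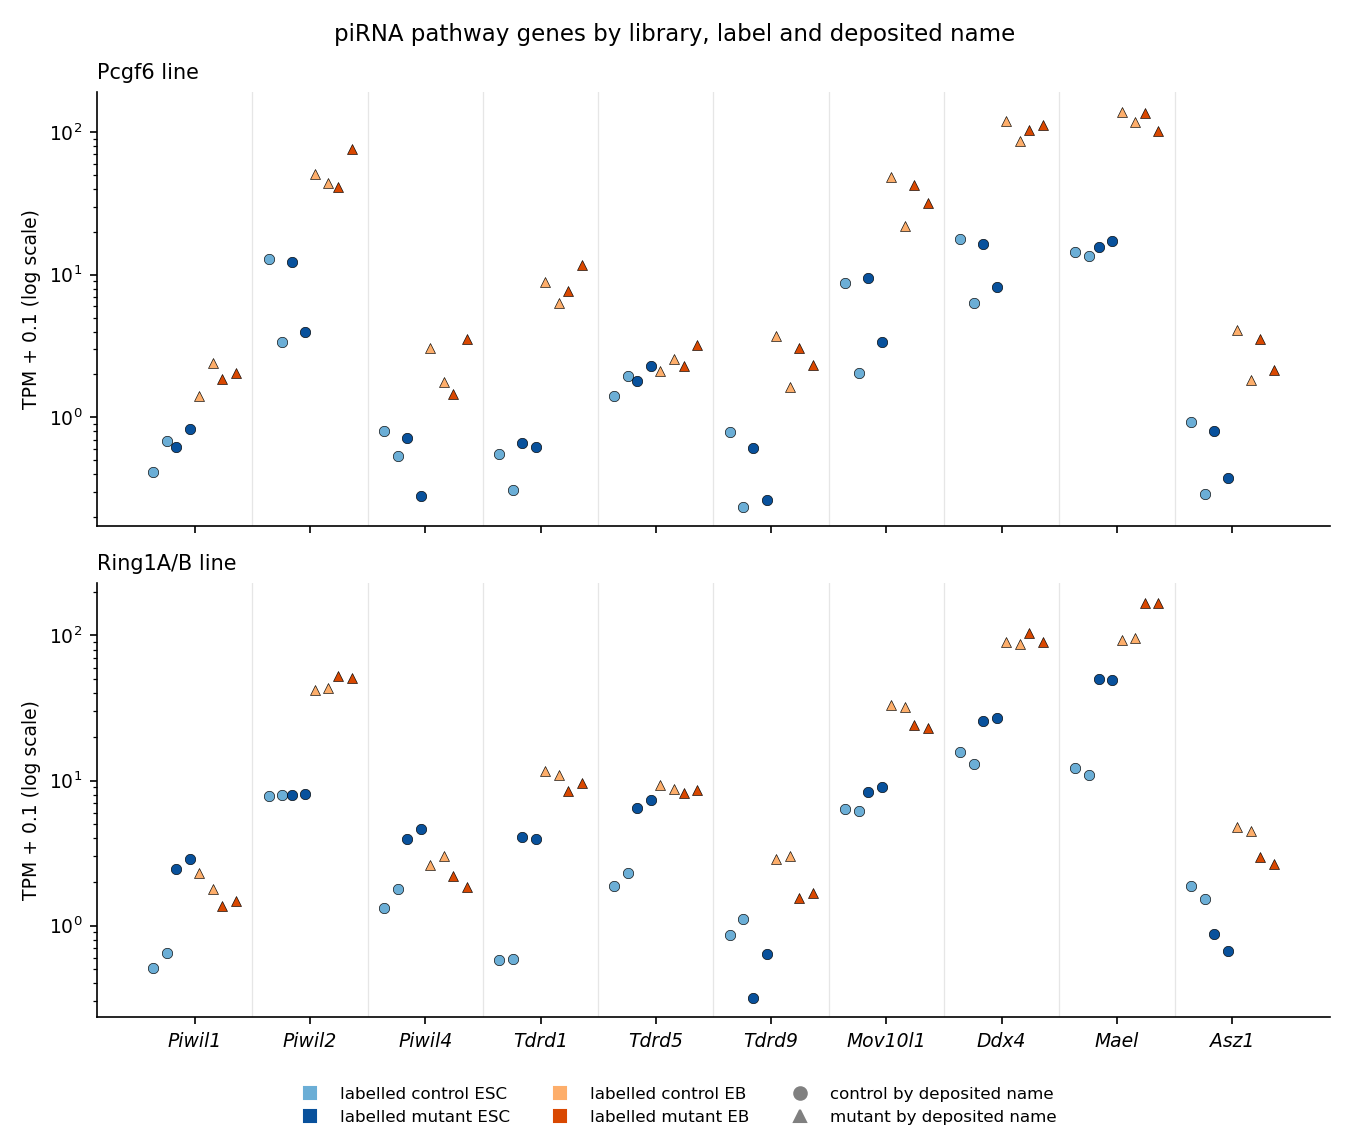
TPM of each member in every library (log axis with 0.1 added) of the *Pcgf6* and *Ring1A/B* lines by labelled group, with circles for libraries that are controls and triangles for those that are mutants by the deposited name. In the *Pcgf6* line all triangles fall in groups labelled EB, and for *Mael* they lie at 102 to 139 TPM against 13.5 to 17.0 TPM for the circles.

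Set against *Pcgf1* loss by label, the *Ring1A/B* line gave a positive difference in ESCs for 5 members, where 3.46% of all genes were called higher. The values were 3.46 for *Tdrd1*, 2.87 for *Piwil1*, 2.17 for *Mael*, 2.17 for *Tdrd5* and 1.64 for *Ddx4*. By name these libraries are control EBs against control ESCs, so this is not a comparison of *Ring1b* deletion by name. In EBs 0 members were called, 2 at an unadjusted p under 0.05, where 0.803% of all genes were called higher. The *Pcgf6* line minus the *Pcgf1* line gave 0 members in ESCs, where 0.00941% of all genes were called higher, and 0 in EBs, where 0.0565% were. By name the libraries of this line labelled ESC are all controls and those labelled EB all mutants, so neither contrast holds *Pcgf6* loss by name, and the 0 says nothing of it. In EBs *Piwil1* had 3.11 ± 0.75 with an adjusted p of 0.217, and 0 members in ESCs and 1 in EBs passed an unadjusted p of 0.05.

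No member was called in any comparison by label of the *Pcgf2/4* or *Pcgf3/5* lines, in which 0.0% to 0.0401% of all genes were called in a direction (0.02% higher and 0.02% lower for mutant minus control in ESCs of *Pcgf3/5*). In the 8 libraries of the *Pcgf2/4* line *Ddx4* was 12.2 to 18.1 TPM, *Mael* 9.18 to 17.3 TPM and *Piwil2* 6.05 to 10.7 TPM. Each labelled group of this line holds 1 ESC and 1 EB library by name, and *Fgf5* was 0.086 and 46.3 TPM in the 2 libraries labelled control EB. Its libraries labelled ESC are all controls by name and those labelled EB all mutants. Mutant minus control by label therefore holds no loss of *Pcgf2/4* by name, and the lack of calls there says nothing of it. By name *Ddx4* was 16.6 to 17.7 TPM in ESCs of controls, 12.2 to 13.3 TPM in ESCs of mutants, 12.2 to 12.4 TPM in EBs of controls and 15.5 to 18.1 TPM in EBs of mutants, and *Mael* was 9.18 to 13.5, 9.22 to 11.3, 15.0 to 15.2 and 16.0 to 17.3 TPM in the same order. In the *Pcgf3/5* line *Ddx4* was 8.59 to 22.1 TPM and *Mael* 4.84 to 35.8 TPM. Both groups labelled control in this line mix controls and mutants by name, so the lack of calls by label says nothing of *Pcgf3/5* loss either. By name *Mael* was 4.84 to 6.24 TPM in ESCs of controls and 6.95 to 7.28 TPM in ESCs of mutants. In EBs it was 23.7 to 27.04 TPM in controls and 35.5 to 35.8 TPM in mutants by name. The mutants by name thus lay above the controls at both stages for *Mael*, whereas *Ddx4* overlapped at both. These are given as values only, and a difference by name was not tested. In neither line did *Ddx4* or *Mael* reach the level of either gene in the point mutants.

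In control cells of the *Pcgf1* line, the step from ESC to EB moved the members in opposite directions. There 5 members were higher and 3 lower in control EBs than in control ESCs, where 11.5% and 13.4% of all genes were called. *Tdrd1* went from 0.209 to 0.624 TPM up to 1.48 to 6.46 TPM (2.66 ± 0.46, adjusted p 0.000277), and *Tdrd5* from 1.24 to 2.81 TPM up to 8.02 to 11.6 TPM (2.09 ± 0.30, adjusted p 5.57e-05). *Piwil1* went from 0.340 to 0.576 TPM up to 1.31 to 4.74 TPM (1.89 ± 0.44, adjusted p 0.0035), and *Mael* from 7.34 to 12.0 TPM up to 19.5 to 35.0 TPM (1.51 ± 0.23, adjusted p 8.12e-05). In these 4 genes every EB library lay above every ESC library, as for 10.1% of all genes. *Piwil4* passed as well (2.13 ± 0.77, adjusted p 0.0494), with overlapping groups, but it was called in only 6 of 14 alternative settings. Leaving out control EB replicate 1 kept the call, and leaving out any other single control library lost it (adjusted p up to 0.119). *Tdrd9* fell by 1.87 on the log2 scale (SE 0.50, adjusted p 0.00893) to 0 to 0.180 TPM, *Piwil2* fell by 0.85 (SE 0.27, adjusted p 0.0265) from 16.5 to 21.6 TPM to 6.04 to 12.5 TPM, and *Mov10l1* fell by 0.77 (SE 0.25, adjusted p 0.0285). *Ddx4*, at 13.6 to 28.1 TPM in ESCs and 15.8 to 24.6 TPM in EBs, did not pass (-0.14 ± 0.24). Without control ESC replicate 1, control ESC replicate 3 or control EB replicate 1 the count of lower members was 1. Feeder fibroblast markers fell in the same step, from 195 to 284 TPM in control ESCs to 24.4 to 46.0 TPM in control EBs, with 6 of 10 called lower and 2 higher. The primordial germ cell list fell too, from 119 to 182 TPM to 30.7 to 76.1 TPM, with 3 of 6 called lower. The part of these lists was not tested.

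In *Pcgf1*-KO cells 4 members were higher in EBs and 1 was lower, where 8.13% and 10.2% of all genes were called. *Tdrd1* (2.29), *Piwil4* (2.20), *Tdrd5* (1.86) and *Mael* (1.08) were higher and *Piwil2* (-1.17) lower. The call for *Piwil4* held in 8 of 15 alternative settings, with adjusted p from 0.000298 to 0.144. It was lost with a pseudocount of 1 and without mutant ESC replicate 1, 2 or 3 or mutant EB replicate 3, 4 or 5. *Piwil1* was 0.308, 0.117, 0.139, 0.383 and 0.594 TPM in *Pcgf1*-KO ESCs and 0.0467 to 0.260 TPM in *Pcgf1*-KO EBs (-0.48 ± 0.41, adjusted p 0.495). In the point mutant line *Mael* was the 1 member called higher in control EBs (22.3 to 67.2 TPM on average, 1.62 ± 0.24, adjusted p 0.0136), where 2.73% of all genes were called higher. No member was called lower there. Of the members lower in *Pcgf1* control EBs, *Mov10l1* was level in control ESCs and EBs of this line (means of 15.4 and 15.2 TPM). *Piwil2* (12.3 and 7.94 TPM) and *Tdrd9* (1.02 and 0.618 TPM) had lower means in its control EBs. In 4-OHT treated cells of that line 0 members were called higher in EBs, and 0 lower, where 0.0493% and 0.0838% of all genes were, and 0 passed an unadjusted p of 0.05.

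**Figure D5:**
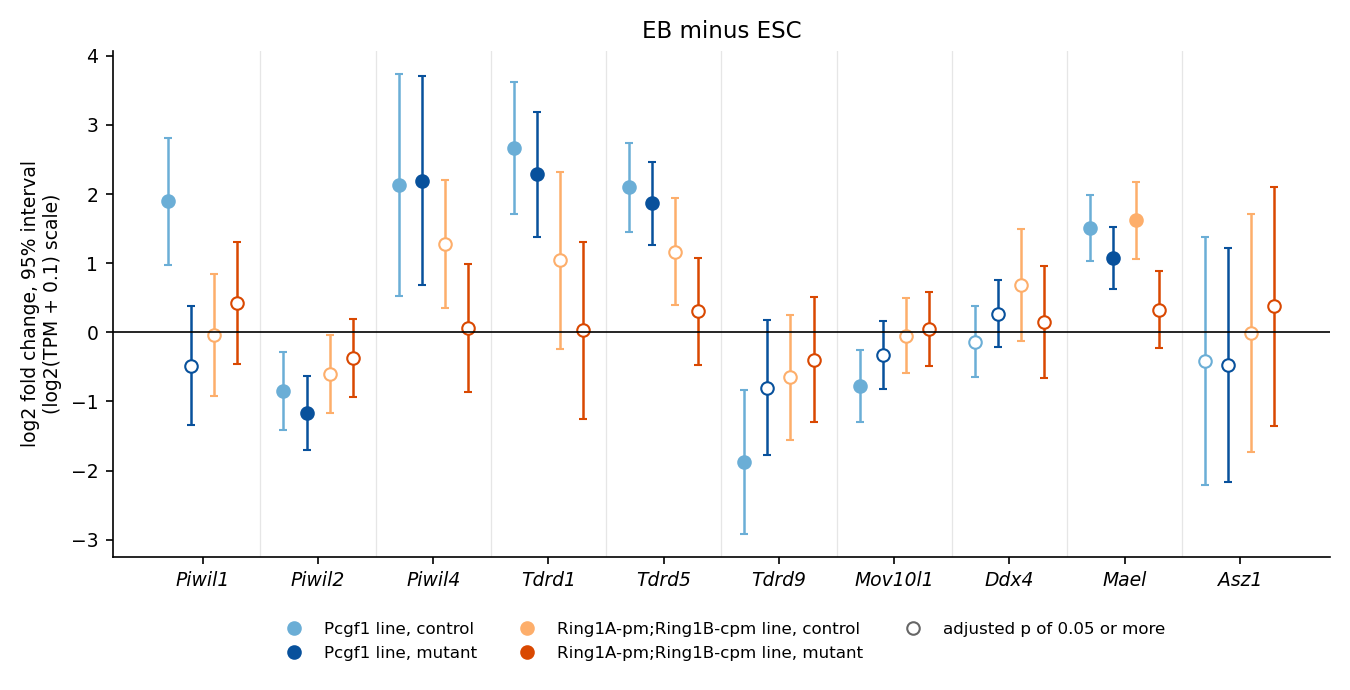
Log2 difference of EBs minus ESCs for each member, in control and mutant cells of the *Pcgf1* and point mutant lines, with bars for the 95% interval and filled points where the adjusted p was under 0.05. *Tdrd1*, *Tdrd5* and *Mael* lie above 0 and filled in both states of the *Pcgf1* line, where *Piwil2* lies below 0 and filled.

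Of 17 other genes of the pathway found in the files, 2 were called higher and 0 lower in point mutant ESCs, where 2.34% and 0.197% of all genes were. These were *Tdrkh* (2.33), a Tudor protein of mitochondria that takes part in piRNA trimming, and *Stk31* (1.31), a Tudor protein with a kinase-like domain. In EBs *Tdrkh* (2.04), *Stk31* (1.41) and *Tdrd6* (2.47) were called higher, where 3.76% of all genes were. The medians of the 17 genes were 0.50 and 0.45 on the log2 scale, between those of all genes and of the 10 members. None of the 17 was called on *Pcgf1* loss in ESCs or EBs, where 0.32% to 1.08% of all genes were called in a direction. In control EBs of the *Pcgf1* line 3 were lower than in ESCs, *Mybl1* (-0.78), a transcription factor of pachytene piRNA genes, *Morc1* (-1.12) and *Fkbp6* (-1.09), and 0 higher. Among all genes 13.4% were called lower and 11.5% higher there, so 3 of 17 is near the share of all genes. Of 12 germline genes outside the pathway, 5 were called higher in point mutant ESCs (2.34% of all genes), *Slc25a31*, *Brdt*, *Tex101*, *Syce1* and *Taf7l*, and 0 on *Pcgf1* loss.

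Across the 59 libraries, centred within each line, the members went together to unequal degrees. The Pearson r of a member with the mean of the other 9, given as a description over libraries that share lines, was 0.88 for *Ddx4*, 0.87 for *Mael*, 0.82 for *Tdrd1* and 0.77 for *Mov10l1*. It was between 0.47 (*Asz1*) and 0.61 (*Piwil2*) for the other 6. Among genes with a mean of at least 1 TPM that are not members, *Tex11* (0.90), *Neto2* (0.87) and *Ctcfl* (0.87) were the most like the mean of all 10. *Tex11* is a meiotic gene on the X chromosome, and *Ctcfl* encodes the germline paralog of CTCF. *Ddx4* was most like *Tex11* (0.93) and *Tdrkh* (0.90), *Mael* most like *Sycp2* (0.91), a gene of the synaptonemal complex, and *Tdrd1* most like *Igfbp3* (0.94). *Piwil2* was most like *Sec1* (0.88) and *Tex15* (0.87), and *Mov10l1* most like *Stx17* (0.87). *Piwil1* stood apart, with *Thy1* (0.81), a gene that is also in the fibroblast list, as the most alike, and *Asz1* had no gene above 0.69 (*Phf11a*).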

How the data were processed

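RNA-seq was analysed in 59 libraries of 6 lines. The study's methods describe single-end reads of poly(A) RNA, aligned with STAR (version 2.5.2b, mm9) and counted on exons. The authors deposited TPM per gene symbol. The step from reads to TPM and the strand used in counting are not given in the sources used here, and the depth of each library is unknown. Every library sums to 1000000 TPM, and none of 1711 pairs of libraries held identical values. The study's own fold changes came from DESeq2, a test for counts, which does not suit TPM.

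Libraries were grouped by their labels. The title of 1 library of *Pcgf1*-KO EBs gives it as replicate 4 and its characteristics as 5, and the title was followed. Fits were made with limma (version 3.58.1, in R version 4.3.3) to log2(TPM + 0.1), 1 fit per line over its 4 groups with an empirical Bayes trend, on genes above 0 TPM in at least 1 library, two-sided, with Benjamini-Hochberg adjustment over all genes tested. Differences between lines were fitted over the 8 groups of both lines. Intervals are 95% intervals of limma. The fit was also tested on simulated data.

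The alternatives were a pseudocount of 1, a mean of at least 1 TPM, median-of-ratios scaling, the replicate number as a block and leaving out each library. A covariate for the 3 library series of the *Pcgf1* line (replicate 1, replicates 2 and 3, replicates 4 and 5, by identifiers in the headers) was chosen after seeing the data. As a check of the pairing, same-numbered libraries of the *Pcgf1* line deviated together from their group means (r 0.32 to 0.65). Libraries of different numbers were not correlated, so this cannot tell pairing by number from a shared library series. Blocked values stand beside results that they change. All 10 members are named. Other genes are named where they passed the test, or by the highest r. The members and gene lists were chosen with earlier results of these data known. Sequences are those of RefSeq on GRCm38.p6, of which the first listed start of a gene was used, and gene positions are those of mm9. Tables and plots were made with pandas 2.3.3, numpy 2.4.6 and matplotlib 3.10.9 in Python 3.11.15.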

Additional observations from a re-analysis of the deposited data

Results flagged for a closer look

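Dixon's rule was applied to the members in 40 groups of 4 or 5 libraries of the *Pcgf1* line, and chance singles out about 1 in 20 such groups. In 4 groups a library stood apart. *Piwil2* was 6.04 TPM in control EB replicate 1, with the others at 10.7 to 12.5 TPM, and 4.31 TPM in *Pcgf1*-KO EB replicate 1, with the others at 9.78 to 12.1 TPM. *Tdrd5* was 11.6 TPM in control EB replicate 3, with the others at 8.02 to 8.88 TPM. *Tdrd9* was 0.236 TPM in control ESC replicate 3, with the others at 0.658 to 0.706 TPM.

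Mutant minus control by label differed between lines by limma's test of the difference itself, given as log2 values with the *Pcgf1* line subtracted. For the point mutant line in ESCs these were *Tdrd1* (4.26), *Ddx4* (3.12), *Mael* (2.75), *Tdrd5* (2.20) and *Mov10l1* (2.00). In EBs they were *Piwil1* (4.10), *Tdrd1* (3.62), *Ddx4* (2.18), *Piwil2* (2.15), *Mael* (1.89) and *Mov10l1* (1.65). For the *Ring1A/B* line by label, in ESCs, they were *Tdrd1* (3.46), *Piwil1* (2.87), *Mael* (2.17), *Tdrd5* (2.17) and *Ddx4* (1.64). Its libraries labelled mutant and control ESC are control EBs and control ESCs by deposited name, so these values hold no *Ring1b* deletion by name.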

How the results depend on the processing

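No called member changed direction under any alternative. Estimates of members that were not called could change sign, as for *Asz1* in point mutant against control ESCs (-0.65 to 0.62 over the alternatives). With the replicate block, the counts of members called were 3 lower in *Pcgf1*-KO ESCs (0 without it), 2 lower in *Pcgf1*-KO EBs (1), 4 higher in control EBs against ESCs of the point mutant line (1), where 5.69% of all genes were called higher, 7 higher in the averaged labelled EB against ESC comparison of the *Pcgf6* line (1), where 1.52% were, and 1 in its libraries labelled control (0), where 0.0457% were. By name that line's libraries labelled EB are mutants and those labelled ESC controls. Between lines, the block gave 8 higher for the point mutant line in ESCs (5), where 3.73% of all genes were, and 2 for the *Ring1A/B* line by label in EBs (0), where 5.22% were. It moved no other count by over 1.5 times. Outside the *Pcgf1* line there are only 2 pairs, which share no more than a number, with r from -0.79 to 0.08 (*Pcgf3/5*), -0.04 to 0.05 (*Ring1A/B*), 0.11 to 0.38 (point mutant), 0.28 to 0.76 (*Pcgf6*) and 0.62 to 0.76 (*Pcgf2/4*). For the settings that follow, the share of all genes called is not given, so these counts have no background. The library series as a covariate gave 2 lower members in *Pcgf1*-KO ESCs and 2 in *Pcgf1*-KO EBs. A mean of at least 1 TPM gave 0 lower in *Pcgf1*-KO EBs, since it removes *Piwil1*, and 3 in the averaged *Pcgf6* comparison, as did median-of-ratios scaling (3). A pseudocount of 1 gave 1 member higher in libraries of the *Pcgf6* line labelled control EB, which are mutants by name, and 1 for the *Ring1A/B* line minus the *Pcgf1* line in EBs. The cause was not tested for the other changes. Scaling shifted the median of all genes by -0.12 (ESCs) and -0.10 (EBs) for mutant minus control in the point mutant line, where 6 and 5 members were called as before.

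Leaving out 1 library at a time gave these ranges of members called. The share of all genes in these fits is not given, so a general loss of power cannot be told from a change in the members. In the point mutant line they were 0 to 1 higher in mutant ESCs, 0 to 0 in mutant EBs and 0 to 1 in control EBs against ESCs. They were 1 to 3 lower for the step from ESC to EB in *Pcgf1* controls and 0 to 1 higher in the averaged *Pcgf6* comparison. In the *Ring1A/B* line, by labels that differ from the names, they were 1 to 2 lower for mutant minus control in ESCs, 1 to 1 in EBs and 1 to 2 for mutant EBs against ESCs. Between lines they were 2 to 6 for the point mutant line in EBs, 3 to 5 for the *Ring1A/B* line in ESCs (3 without its mutant ESC replicate 2) and 0 to 1 in EBs (1 without control EB replicate 2 or *Pcgf1*-KO EB replicate 3 of the *Pcgf1* line). With 2 libraries a group and an unknown depth, members below about 1 TPM cannot be placed closely.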
